A study of Mus musculus with 8 samples.

Results

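The matrix metalloproteinases (Mmp genes), the ADAMTS proteases (Adamts genes), the ADAMTS-like proteins (Adamtsl genes) and the tissue inhibitors of metalloproteinases (Timp genes) were collected by symbol. Every protein-coding gene of the count tables named Mmp, Adamts, Adamtsl or Timp followed by its number was taken, whatever its level. This gave 50 of the 43629 genes in the tables, of which 21551 are protein coding. The 50 genes are 22 Mmp, 19 Adamts, 5 Adamtsl and 4 Timp genes. Mmp1a is annotated as a polymorphic pseudogene and was not taken. Poly-A RNA was sequenced from lower first molars of mouse embryos at embryonic day E18.5, with the left and right molar of each embryo pooled. The 4 mutant embryos (K14J26, K14J28, K14J29 and K14J30) are K14Cre;Jagged1fl/fl, and the 4 control embryos (J3, J5, J6 and J7) are Jagged1fl/fl littermates without the Cre transgene, called WT. Both groups therefore carry the floxed Jagged1 alleles. The K14 promoter drives Cre in epithelium, so that the mesenchyme of the molar, which is part of each sample, keeps its Jagged1. The sex of the embryos and the number of litters are not given in the sources used here.

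Matrix metalloproteinases and ADAMTS proteases are zinc-dependent enzymes that cut proteins of the extracellular matrix outside the cell or at its surface. They are made as inactive proenzymes and are often activated by proprotein convertases or by other proteases. Timps block matrix metalloproteinases by binding in their active site, and TIMP3 also inhibits ADAMTS proteases. The ADAMTS-like proteins share the binding domains of ADAMTS proteases but have no protease domain. In teeth, MMP20 (enamelysin) is made mainly by ameloblasts, the epithelial cells that secrete enamel matrix, and cuts amelogenin. Gelatinases and collagenases turn over the collagens of the dental mesenchyme and of the bone around the tooth germ. The procollagen N-proteinases ADAMTS2, ADAMTS3 and ADAMTS14 trim newly made fibrillar collagen, which odontoblasts and osteoblasts secrete.

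The libraries held 17327224 to 28613574 counts in WT and 24692128 to 29792467 in mutant embryos, and 3 counts corresponded to 0.0998 to 0.166 CPM (counts scaled to library size) depending on the embryo. Jag1 was at 95.2 to 104 CPM in WT and 34.0 to 57.1 CPM in mutant molars. The samples held both dental compartments, with epithelial markers summing to 4654 to 5368 CPM in WT and 5483 to 8078 CPM in mutant embryos and mesenchymal markers to 6173 to 8829 and 7761 to 18933 CPM, while cartilage markers summed to at most 19.1 CPM. The members of these sums did not move alike. Of the 4 mesenchymal markers Col1a1 rose (log2 fold change 1.10, mutant over WT) and Msx1 fell (-0.26), and Col3a1 was at -0.22 without passing the test. Of the 6 epithelial markers Krt14 rose (0.96), and Epcam was lower in every mutant than in every WT embryo (-0.51, adjusted p = 0.0527 in edgeR). Among the libraries, K14J26 had the lowest scaling factor (0.843) and the highest levels of the enamel genes. Xist was at 1929 and 1467 CPM in K14J28 and K14J29 and at most at 1.09 CPM in the other 6 embryos. High Xist was thus seen only in mutant embryos, so that it and genotype can be told apart only in part. The part of embryo sex in the differences between the groups was not tested. The summed skeletal muscle markers reached 318 and 143 CPM in J6 and J7 and at most 12.6 CPM elsewhere. Values of the embryos are given in the order J3, J5, J6 and J7 for WT and K14J26, K14J28, K14J29 and K14J30 for mutant molars.

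The catalytic site that unites these proteases was read from the coding sequences, since it separates the enzymes from the other members. It consists of His-Glu, any 2 residues, His, any 2 residues, Gly, any 2 residues and His, in which the His residues hold the zinc ion. Codons for this pattern were found in 22 of the 22 Mmp and 13 of the 19 Adamts genes, in none of the 5 Adamtsl or the 4 Timp genes, and in 0.317% of the protein-coding genes. A form with Asn in place of Gly, searched for after the first result was seen, added Adamts1, Adamts4, Adamts9, Adamts15 and Adamts20 and brought the Adamts genes to 18 of 19 (0.341% of the protein-coding genes). In Adamts8 neither form was found. All 22 Mmp sites lay within a coding exon, 18 of them in exon 5 of the transcript, whereas all 18 Adamts sites were split by an intron. The sites of the 8 genes that passed the test between the groups are shown 5′ to 3′ on the coding strand, with the coordinates of GRCm38, and the capitals mark the codons of the fixed residues.
Mmp20 (chr9:7643985-7644017, plus strand, exon 5): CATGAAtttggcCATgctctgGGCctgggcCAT
Mmp11 (chr10:75926931-75926963, minus strand, exon 5): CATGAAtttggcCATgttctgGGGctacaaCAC
Mmp15 (chr8:95368585-95368617, plus strand, exon 5): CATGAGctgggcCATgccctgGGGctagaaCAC
Adamts14 (chr10:61225465-61227123, minus strand, exons 7 and 8): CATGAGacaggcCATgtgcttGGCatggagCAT
Adamts3 (chr5:89707433-89707818, minus strand, exons 8 and 9): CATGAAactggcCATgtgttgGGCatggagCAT
Adamts6 (chr13:104352847-104366809, plus strand, exons 9 and 10): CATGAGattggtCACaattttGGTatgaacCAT
Adamts10 (chr17:33538157-33538279, plus strand, exons 9 and 10): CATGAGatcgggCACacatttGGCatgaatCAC
Adamts20 (chr15:94353678-94355296, minus strand, exons 8 and 9): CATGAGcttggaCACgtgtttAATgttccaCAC
Of the 33 bases, Adamts14 and Adamts3, both procollagen N-proteinases, share 29, the most of any pair shown. Adamts20 and Mmp20 share 16, the fewest. Adamts6 and Adamts10, which are close relatives, share 26, and Mmp11 shares 27 with Mmp15. The Adamts20 site is the only one of the 8 with the Asn codon.

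Of the 22 Mmp genes, 9 lie in a run on chromosome 9 from 7272514 to 7699585 (GRCm38), 427072 bases in all. In order these are Mmp13, Mmp12, Mmp1b, Mmp3, Mmp10, Mmp8, Mmp27, Mmp20 and Mmp7. The pseudogene Mmp1a, which was not taken, lies between Mmp3 and Mmp10 and had 1 count in all 8 libraries together. Mmp13, Mmp8 and Mmp20 had enough counts to be tested, and the other 6 of the 9 had at most 5 counts in any embryo. Promoter sequences (RefSeq, GRCm38.p6) matched 35 of the 50 genes, and the 250 bases before the start were searched on both strands for an AP-1 site (TGACTCA), a site of the Notch transcription factor RBPJ (GTGGGAA) and a TATA box (TATAAA). The AP-1 letters were present in 6 of the 35 genes, all of them in the chromosome 9 run (Mmp13, Mmp12, Mmp1b, Mmp3, Mmp10 and Mmp7), and in 4.46% of all promoters. The RBPJ letters were present in Adamtsl2 and Mmp7 and in 5.42% of all promoters. The TATA letters were present in 9 of the 35 genes, Mmp13 and Mmp20 among them, and in 12.4% of all promoters. Of the 6 genes past the test that had a promoter entry, only Mmp20 held any of the 3 motifs. The promoters of the genes of the run with the most counts, Mmp13 and Mmp20, are shown to compare them, both on the plus strand and with the motifs in capitals.
Mmp13 (chr9:7272264-7272513): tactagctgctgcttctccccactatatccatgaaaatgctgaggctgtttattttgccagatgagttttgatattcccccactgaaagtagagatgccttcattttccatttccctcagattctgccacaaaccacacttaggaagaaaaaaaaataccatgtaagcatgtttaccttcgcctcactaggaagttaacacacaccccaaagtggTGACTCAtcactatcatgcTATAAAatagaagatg
Mmp20 (chr9:7627981-7628230): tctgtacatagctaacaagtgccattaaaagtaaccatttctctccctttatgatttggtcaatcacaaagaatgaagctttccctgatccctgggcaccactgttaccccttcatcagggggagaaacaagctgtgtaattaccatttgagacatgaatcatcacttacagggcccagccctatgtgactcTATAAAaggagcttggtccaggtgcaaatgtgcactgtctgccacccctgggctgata
Both hold the TATA letters in their downstream part, and the Mmp13 promoter has the AP-1 letters just before them. Neither holds the RBPJ letters in this window.

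Levels of different genes were compared as CPM per kilobase of merged exons, averaged over the 8 embryos of both groups. By this mean Mmp13, the main collagenase of mouse, was the most abundant of the 50 genes at 81.6 CPM per kilobase, followed by the gelatinase Mmp2 at 71.0 and the gelatinase Mmp9 at 66.4. Timp2 followed at 60.1, Mmp20 at 55.9, the membrane-type Mmp14 at 54.0 and Timp1 at 37.6 CPM per kilobase. Within WT alone, the level per kilobase was 89.9 ± 38.4 (SD, n = 4) for Mmp13, 78.5 ± 15.1 for Mmp2, 63.6 ± 5.60 for Timp2, 52.2 ± 2.85 for Mmp14 and 49.8 ± 18.4 for Mmp9. Neighbours in this order differed by less than their spread, except Timp2 and Mmp14, whose WT embryos did not overlap. In the mutant embryos the order was another, with 101 ± 90.7 for Mmp20 (11.1 ± 7.79 in WT), 83.0 ± 49.9 for Mmp9, 73.4 ± 42.0 for Mmp13, 63.6 ± 6.91 for Mmp2, 56.6 ± 3.56 for Timp2 and 55.8 ± 6.27 for Mmp14. The SD of the first 3 was more than the distance to the next gene. The highest Adamts genes were Adamts17 at 20.96, Adamts10 at 13.7 and Adamts2 at 10.6 CPM per kilobase, and the highest Adamtsl gene was Adamtsl5 at 4.33. Summed over each family, the WT embryos ranged from 250 to 401 CPM per kilobase for the Mmp genes, from 80.5 to 90.2 for the Adamts genes, from 6.49 to 8.02 for the Adamtsl genes and from 106 to 127 for the Timp genes. The mutant embryos ranged from 332 to 467, from 83.6 to 94.2, from 6.54 to 10.2 and from 111 to 130 CPM per kilobase, so that the groups overlapped in all 4 sums. Mmp20 accounted for 1.64%, 3.64%, 8.17% and 1.57% of the Mmp sum in the WT embryos and for 50.9%, 6.75%, 22.9% and 13.8% in the mutant embryos. The groups overlapped in this share too, with J6 above K14J28.

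**Figure D1:**
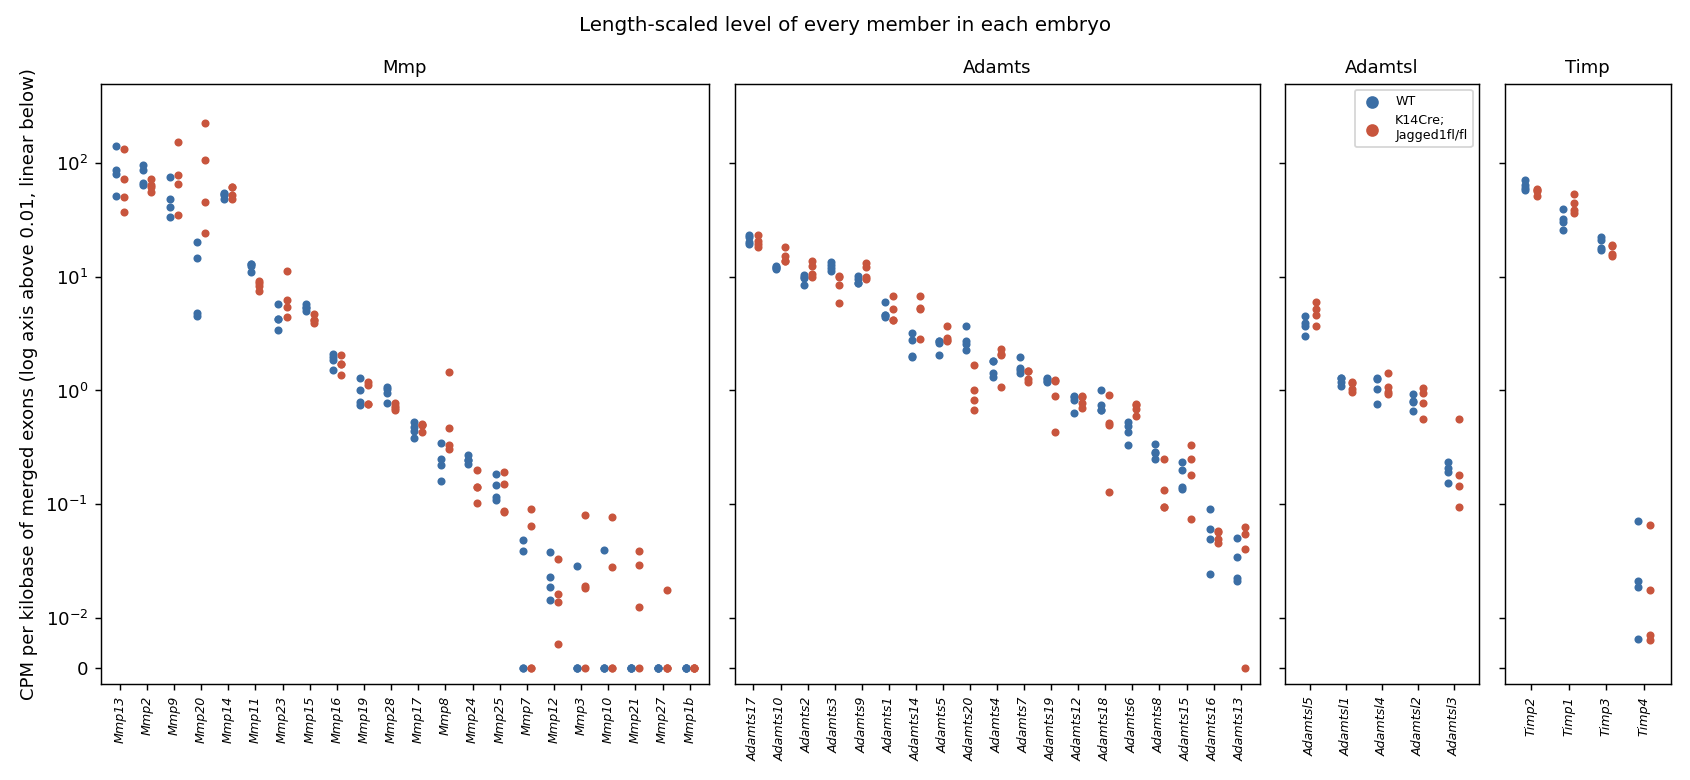
Level of each of the 50 genes in each embryo, in CPM per kilobase of merged exons on an axis that is logarithmic above 0.01 and linear below; blue points are the 4 WT and red points the 4 mutant embryos, and genes are ordered by their mean within each family. Levels fall from above 50 for Mmp13, Mmp2, Mmp9, Mmp20, Mmp14 and Timp2 to 0 for Mmp1b, and the colours separate most widely for Mmp20.

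Of the 50 genes, 41 reached 10 counts in 2 or more embryos of either group and were tested: 15 Mmp, 18 Adamts, 5 Adamtsl and 3 Timp genes. The other 9 had at most 9 counts in any embryo. The highest count was 9 for Adamts13, the protease of von Willebrand factor, 8 for Timp4, 5 for the metalloelastase Mmp12, 4 for Mmp10, 3 for Mmp3 and Mmp21, 2 for the matrilysin Mmp7 and 1 for Mmp27. Mmp1b had no count in any library. Of the 41 genes tested, 4 were higher and 4 were lower in the mutant molars at an adjusted p under 0.05 in edgeR's quasi-likelihood test, which is 9.76% in each direction against 9.52% higher and 6.61% lower among all 17129 genes tested. Mmp20, Adamts14, Adamts6 and Adamts10 rose, and Adamts20, Mmp11, Adamts3 and Mmp15 fell. A looser rule, with the p before adjustment up to 0.05 and a log2FC of 0.5 or more in size, was also used. The study's fold change cut-off was read here as a log2 value. By it, 4 genes were higher and 5 lower, against 8.33% and 5.85% of all genes. The groups did not overlap for 9 of the 41 genes, against 24.2% of all genes. The median log2 fold change (log2FC, mutant over WT) of the 41 genes was 0.02 (all genes 0.01), and the median of its size was 0.28 (all genes 0.22). The shares of these genes that were higher or did not overlap are thus near those of all genes. The share that was lower was above that of all genes by both rules, but it rests on 4 and 5 genes.

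**Figure D2:**
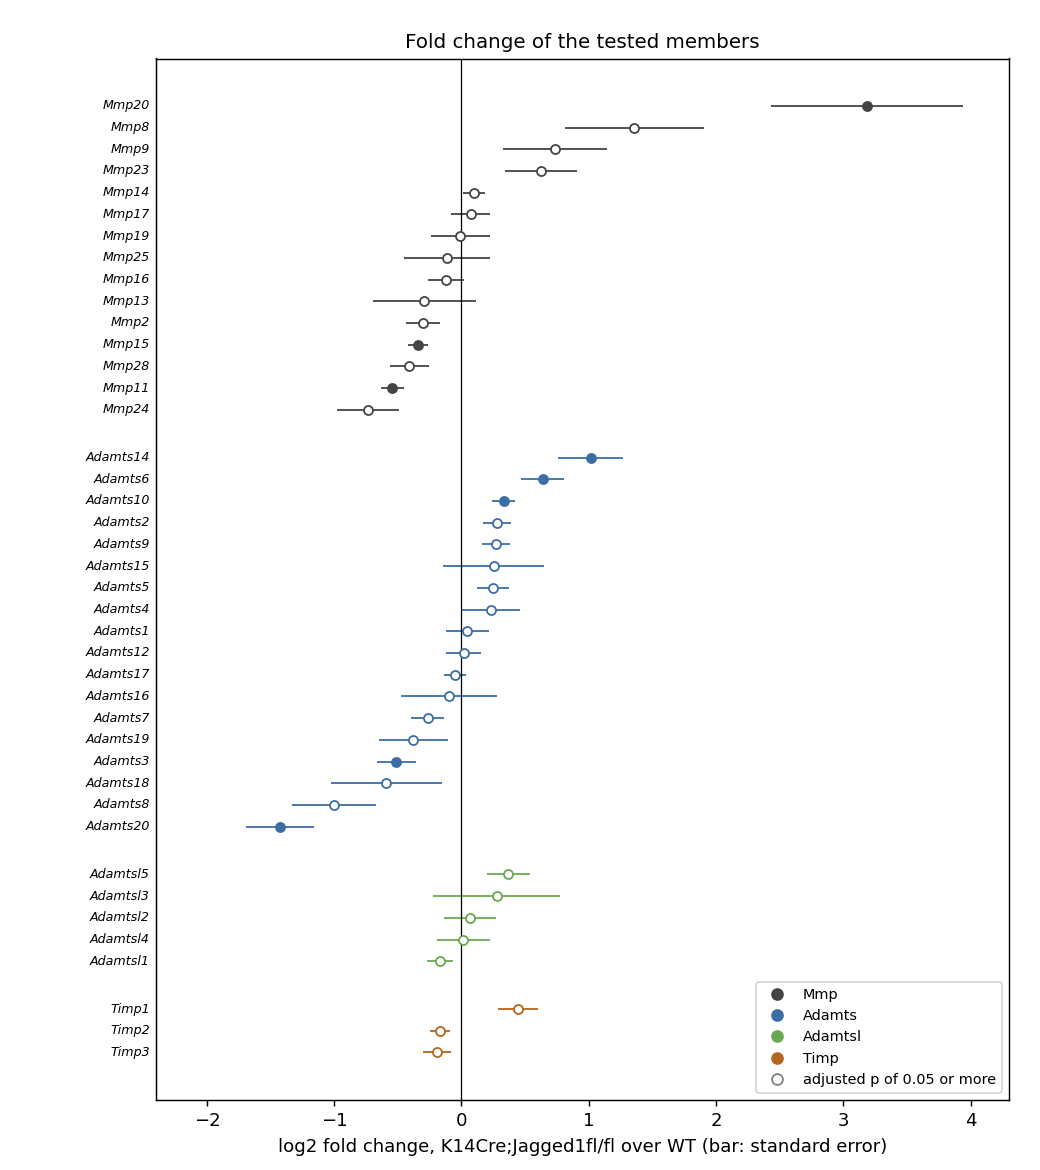
Log2FC of the 41 tested genes, mutant over WT, with its standard error (SE) as a bar, grouped by family and ordered by size; filled points have an adjusted p under 0.05. Mmp20 at 3.19 lies farthest to the right and Adamts20 at -1.42 farthest to the left, and most of the others lie between -0.5 and 0.5.

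Mmp20 (ENSMUSG00000018620, chr9:7628231-7674979) encodes enamelysin, which processes amelogenin while enamel matrix is being secreted. Its level was 14.7, 48.0, 67.1 and 15.9 CPM in the WT embryos and 744, 80.1, 351 and 150.4 CPM in the mutant embryos. All 4 mutant embryos lay above all WT embryos, but K14J28 exceeded J6 by little, and the mutant embryos differed among themselves by 9.29-fold. This gave a log2FC of 3.19 with an SE of 0.76 (9.10-fold, adjusted p = 0.0263), and the same direction was found in 4 of 4 mutant embryos. The embryos had the same order in the ameloblast markers, except that J3 and J7 changed places. These markers summed to 823, 2070, 3354 and 695 CPM in WT and to 113930, 3877, 25866 and 9819 CPM in mutant embryos, and 4 of the 5 tested (Amelx, Ambn, Enam and Odam) rose; Klk4 had an adjusted p of 0.0533 and Amtn was not tested. No ameloblast marker was at 0 in all embryos. In bulk molars, a change in the number of cells of a type and a change in RNA per cell cannot be told apart. When an enamel gene score (log2 CPM averaged over Klk4, Enam, Ambn and Amelx) was added to the model as a covariate, the log2FC of Mmp20 was 0.43 (adjusted p = 0.36). This score was 4.91 to 7.07 in WT and 7.09 to 12.3 in mutant embryos, without overlap, so that in this fit score and genotype can be told apart only in part. The adjusted p was 0.0742 without J3, 0.0635 without J5, 0.0797 without J7 and 0.0704 without K14J29, with log2FC values from 2.92 to 3.33 in these fits. The log2FC was 2.42 (adjusted p = 0.0246) without K14J26. It was 1.66 (adjusted p = 0.0858) without both K14J26 and K14J29, a fit chosen after seeing the data. With robust quasi-likelihood the log2FC was 3.19 and the adjusted p 0.0509.

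**Figure D3:**
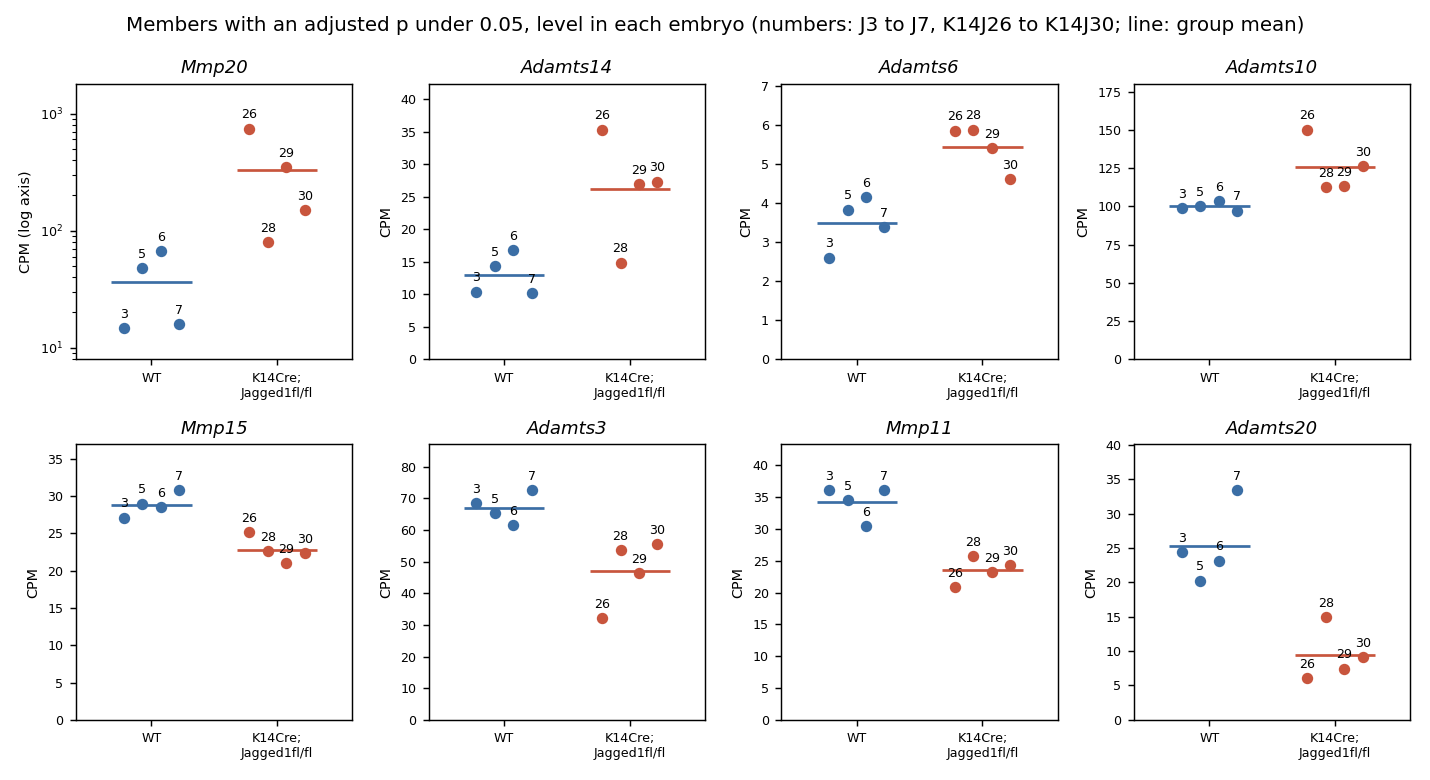
CPM in each embryo of the 8 genes with an adjusted p under 0.05, with the number of the embryo beside its point and the group mean as a line; the axis of Mmp20 is logarithmic and the others start at 0. The groups overlap only for Adamts14, where K14J28 lies among the WT embryos.

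The collagenases cut fibrillar collagens. Mmp13 (chr9:7272514-7283331), which osteoblasts and hypertrophic chondrocytes are known to make, was at 213, 382, 136 and 230.1 CPM in WT and at 99.9, 136, 354 and 195 CPM in mutant embryos. J5 and K14J29 were the highest and K14J26 the lowest, and the groups overlapped throughout (log2FC -0.29, SE 0.40, adjusted p = 0.636). It moved with single embryos, from -0.74 (adjusted p = 0.203) without K14J29 to 0.0096 (adjusted p = 0.99) without J5, and was -0.07 without K14J26, -0.15 without K14J28 and -0.49 without J6. Mmp8 (chr9:7558456-7568485), the collagenase stored in neutrophil granules, was at 0.387, 0.536, 0.830 and 0.608 CPM in WT and at 3.56, 1.13, 0.797 and 0.737 CPM in mutant embryos. Only K14J26 and K14J28 lay above all WT embryos. Its log2FC of 1.36 (SE 0.54) passed the looser rule but not the adjusted test (adjusted p = 0.112), and it was 0.59 (adjusted p = 0.208) without K14J26. The neutrophil markers summed to 8.58 to 14.4 CPM in WT and 21.3 to 45.4 CPM in mutant embryos, with K14J26 the highest. Of the 5 tested, 3 rose (S100a8, S100a9 and Ngp), and none was at 0 in all embryos, though Elane was not above 0.270 CPM in any. Their part in the level of Mmp8 was not tested.

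The gelatinases cut denatured collagen and collagen IV of basement membranes. Mmp2 (chr8:92827291-92853420), which mesenchymal cells make, was at 225, 293, 218 and 322 CPM in WT and at 189, 207, 217 and 245 CPM in mutant embryos. The mutant embryos lay in the lower part of the WT range or under it, with a log2FC of -0.30 and an SE of 0.14 (adjusted p = 0.145). With 1 embryo left out it ran from -0.39 without J6 to -0.20 without J7. Mmp9 (chr2:164940780-164955850), which osteoclasts and other myeloid cells make, was at 171, 269, 119.5 and 146 CPM in WT and at 124, 540.1, 279 and 232 CPM in mutant embryos. K14J28 stood out, J3, J5 and J7 were within the range of the mutant embryos, and K14J26 was near J6, the lowest WT embryo. Its log2FC of 0.74 had an SE of 0.41 (adjusted p = 0.228). It was 0.26 (adjusted p = 0.569) without K14J28, 0.99 (adjusted p = 0.0576) without K14J26 and 1.004 (adjusted p = 0.165) without J5. With the enamel score as a covariate it was 1.66 (adjusted p = 0.0518). Without both K14J28 and K14J29 it was 0.0083 (adjusted p = 0.989), and without both J6 and J7 it was 0.42 (adjusted p = 0.662). Without both K14J26 and K14J29 it was 1.12 (adjusted p = 0.0765). K14J28 was also the highest embryo in the summed osteoclast markers, which were at 271, 440.4, 193 and 207 CPM in WT and 189, 1348, 358 and 347 CPM in mutant embryos. All 7 osteoclast markers had a positive log2FC in edgeR, from 0.50 to 1.16 with a median of 0.98. None of the 7 had an adjusted p under 0.05 in edgeR or DESeq2, and 1 had an unadjusted p under 0.05 in each. None was at 0 in all embryos. The 5 macrophage markers summed to 72.6 to 97.6 CPM in WT and to 62.7, 161, 103 and 90.7 CPM in mutant embryos. K14J28 was the highest in this sum too, through Csf1r and Cd68 alone. These were at 92.7 and 42.3 CPM there, against at most 40.8 and 20.9 CPM in WT. Mrc1 and C1qa, at 13.7 and 7.95 CPM in K14J28, were under all WT embryos. Adgre1, at 4.79 CPM in K14J28, was within the WT range. The part of either list in the level of Mmp9 was not tested.

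**Figure D4:**
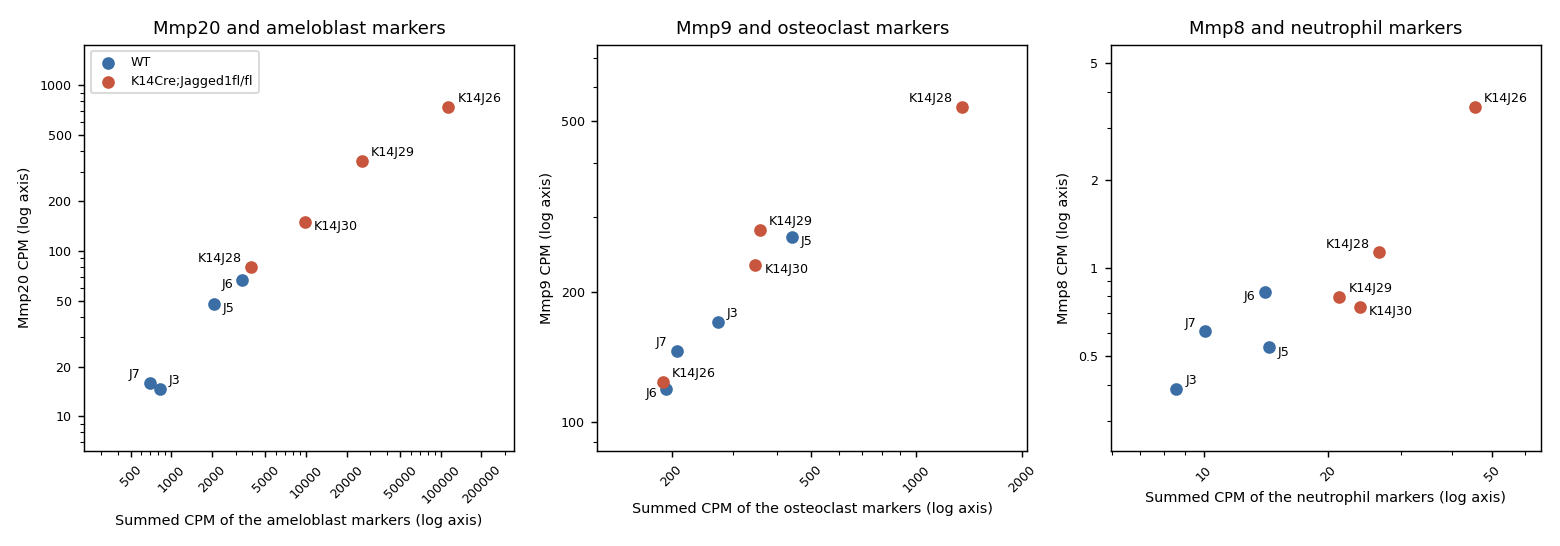
CPM of Mmp20, Mmp9 and Mmp8 against the summed CPM of the ameloblast, osteoclast and neutrophil markers in each of the 8 embryos, on logarithmic axes. K14J26 is the highest embryo on both axes for Mmp20 and Mmp8, and K14J28 is for Mmp9; the points describe 8 embryos and carry no test.

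Mmp11 (ENSMUSG00000000901, chr10:75923222-75936496), or stromelysin-3, is activated inside the cell by furin and is known from stromal cells beside remodelling epithelia. It was at 36.1, 34.5, 30.4 and 36.1 CPM in WT and at 20.8, 25.7, 23.2 and 24.3 CPM in mutant embryos. Every mutant embryo lay under every WT embryo, with a narrow spread in both groups (log2FC -0.54, SE 0.09, adjusted p = 0.0104). This was the only one of the 8 genes whose adjusted p stayed under 0.05 whichever of the 8 embryos was left out, with log2FC values from -0.60 to -0.49. Its exons share 155 bases with Chchd10 on the opposite strand, which was at 5.40 to 10.3 CPM and had an adjusted p of 0.499. The library kit does not mark strand, so reads in those bases cannot be assigned to either gene. Of the 2 other stromelysins, Mmp3 and Mmp10 were both under the count filter.

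Of the 4 transmembrane membrane-type Mmp genes, 1 fell and 3 did not pass the test, against 6.61% lower among all genes. Mmp14 (chr14:54431612-54445364), which activates pro-MMP2 at the cell surface, was at 287, 323, 315 and 321 CPM in WT and at 364, 291, 364 and 312 CPM in mutant embryos. K14J26 and K14J29 lay above the WT range and the other mutant embryos within it. The log2FC was 0.10 with an SE of 0.09 (adjusted p = 0.456), and it was -0.01 when the libraries were scaled by their totals alone, where the median of all genes was -0.09. Mmp15 (ENSMUSG00000031790, chr8:95352268-95375080) was at 27.1, 29.01, 28.5 and 30.8 CPM in WT and at 25.2, 22.6, 21.1 and 22.4 CPM in mutant embryos. The groups did not overlap, and the difference was small, with a log2FC of -0.34 and an SE of 0.08 (adjusted p = 0.0243). The adjusted p was 0.0521 without J3, 0.0602 without J5, 0.0522 without J6, 0.0726 without J7 and 0.0748 without K14J29, with log2FC values from -0.37 to -0.30 in these fits. Mmp16 (chr4:17852893-18119145) was at 13.1, 16.2, 16.9 and 18.3 CPM in WT and at 11.8, 17.6, 14.96 and 14.9 CPM in mutant embryos, which overlapped (log2FC -0.12, SE 0.14, adjusted p = 0.577). With 1 embryo left out its log2FC ran from -0.22 without K14J28 to -0.03 without K14J26. Mmp24, known mainly from neurons, was at 1.27, 1.15, 1.14 and 1.05 CPM in WT and at 0.480, 0.931, 0.658 and 0.659 CPM in mutant embryos. These did not overlap, and the log2FC of -0.73 (SE 0.24) passed the looser rule but not the adjusted test (adjusted p = 0.066). For Mmp24 the adjusted p was 0.0262 without K14J28 and 0.0472 with a filter of at least 1 CPM in all 4 embryos of a group. Its exons share 637 bases with BC029722 on the opposite strand, which was more abundant, at 23.2 to 28.4 CPM.

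The remaining Mmp genes showed no call. The GPI-anchored Mmp17 and Mmp25 had log2FC values of 0.07 and -0.11. Mmp19, Mmp23 and Mmp28 had log2FC values of -0.01, 0.63 and -0.41, with adjusted p-values of 0.981, 0.151 and 0.0917. Mmp23 was highest in K14J26 at 26.3 CPM, against 7.90 to 13.6 CPM in WT and 10.3 to 14.5 CPM in the other mutant embryos. Mmp28, or epilysin, overlapped only through J3, with 2.99 to 4.19 CPM in WT and 2.63 to 3.02 CPM in mutant embryos.

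The proteoglycanases among the Adamts genes cut versican and aggrecan, the large chondroitin sulphate proteoglycans of soft and cartilage matrix. Of the 7, 1 fell, against 6.61% of all genes, and the other 6 did not pass the test. Adamts20 (ENSMUSG00000022449, chr15:94270163-94465418), which cuts versican and is the gene mutated in belted mice, was at 24.4, 20.3, 23.2 and 33.4 CPM in WT and at 6.10, 14.96, 7.45 and 9.07 CPM in mutant embryos. K14J28 was the highest mutant embryo and still lay under J5, the lowest WT embryo. The log2FC was -1.42 with an SE of 0.27 (0.373-fold, adjusted p = 0.0151), the largest fall among the 41 genes. The adjusted p was 0.0509 without J7 and 0.056 without K14J29, where the log2FC was -1.27 and -1.32. Its substrate versican moved the same way: Vcan was at 1026, 844, 907 and 1175 CPM in WT and at 476, 691, 492 and 583 CPM in mutant embryos (log2FC -0.82, SE 0.14, adjusted p = 0.0118). Adamts8 was at 1.33, 1.57, 1.30 and 1.15 CPM in WT and at 0.432, 0.432, 1.14 and 0.620 CPM in mutant embryos. K14J29 all but reached the lowest WT embryo, and the log2FC of -1.001 (SE 0.33, adjusted p = 0.0661) passed the looser rule but not the adjusted test in edgeR. DESeq2 gave an adjusted p of 0.0429. Without K14J29 the log2FC was -1.42 with an adjusted p of 0.0427, which was 0.036 without both K14J28 and K14J29 and 0.0351 without both K14J26 and K14J29. The other 5 proteoglycanases had log2FC values from 0.05 to 0.27: Adamts1, Adamts4, Adamts5, Adamts9 and Adamts15, with adjusted p-values of 0.874, 0.496, 0.187, 0.114 and 0.680. Adamts9, the most abundant of them per kilobase, was at 132 to 152 CPM in WT and 145 to 200.2 CPM in mutant embryos. Its exons share 1381 bases with A730049H05Rik, which was at 0.931 to 2.30 CPM.

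The 3 procollagen N-proteinases did not move together. Adamts14 (ENSMUSG00000059901, chr10:61197112-61273438) was at 10.4, 14.3, 16.8 and 10.2 CPM in WT and at 35.4, 14.9, 27.0 and 27.3 CPM in mutant embryos. K14J28 lay within the WT range, so that 3 of 4 mutant embryos were above all WT embryos. The log2FC was 1.01 with an SE of 0.26 (2.02-fold, adjusted p = 0.032). The adjusted p was 0.0898 without J3, 0.0696 without J5, 0.0946 without J7, 0.0842 without K14J29 and 0.0597 without K14J30, with log2FC values from 0.90 to 1.05 in these fits. Adamts3 (ENSMUSG00000043635, chr5:89677087-89883334), which also cuts the lymphatic growth factor VEGF-C, was at 68.5, 65.4, 61.7 and 72.5 CPM in WT and at 32.2, 53.7, 46.4 and 55.4 CPM in mutant embryos. All mutant embryos lay under all WT embryos, K14J26 the farthest. The log2FC was -0.51 with an SE of 0.15 (adjusted p = 0.0492), at the edge of the threshold. Its adjusted p was 0.112 without J3, 0.0979 without J5, 0.0775 without J6, 0.127 without J7 and 0.118 without K14J29, and the log2FC was then -0.55 to -0.48. Adamts2 (chr11:50602084-50807573), the best known procollagen I N-proteinase, was at 79.0, 91.1, 92.2 and 96.8 CPM in WT and at 129.8, 92.7, 115 and 98.6 CPM in mutant embryos. K14J26, K14J29 and K14J30 exceeded all WT embryos, with a log2FC of 0.28 and an SE of 0.11 (adjusted p = 0.111; 0.038 without K14J28). The genes of their substrate, type I collagen, rose: Col1a1 had a log2FC of 1.10 (SE 0.31, adjusted p = 0.0406) and Col1a2 of 1.43 (SE 0.33, adjusted p = 0.0237). The fibrillar collagen genes Col3a1 and Col2a1 had log2FC values of -0.22 and -0.32 and did not pass the test (adjusted p = 0.235 and 0.171). The odontoblast markers summed to 707, 1589, 1993 and 764 CPM in WT and 7479, 2345, 5689 and 3498 CPM in mutant embryos, and 3 of 4 rose. The osteoblast markers summed to 206 to 255 CPM in WT and 279 to 524 CPM in mutant embryos, and 2 of 4 rose, Bglap by a log2FC of 2.56 and Bglap2 of 1.91. Ibsp, the largest part of the sum in WT, was at 164 to 189 CPM there and at 149, 447, 169 and 141 CPM in mutant embryos. Ibsp and Ifitm5 did not pass the test (adjusted p = 0.511 and 0.189). None of either list was at 0 in all embryos, and their part in the levels of Adamts14 and of the collagens was not tested.

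Adamts6, Adamts10 and Adamts17 belong to the ADAMTS proteases that act on fibrillin microfibrils, and ADAMTS10 and ADAMTS17 are altered in Weill-Marchesani syndromes. Adamts6 (ENSMUSG00000046169, chr13:104287835-104496695) was at 2.60, 3.83, 4.15 and 3.38 CPM in WT and at 5.86, 5.89, 5.40 and 4.61 CPM in mutant embryos. All mutant embryos were above all WT embryos, at low levels, with a log2FC of 0.64 and an SE of 0.17 (adjusted p = 0.0354). The adjusted p was 0.0811 without J3, 0.0735 without J5, 0.0968 without J7 and 0.0872 without K14J29, with the log2FC at 0.53 to 0.67. Adamts10 (ENSMUSG00000024299, chr17:33524204-33553782) was at 99.1, 100.3, 103 and 97.2 CPM in WT and at 150.4, 113, 113 and 127 CPM in mutant embryos. The WT embryos lay close together, all mutant embryos were above them, and K14J26 was the highest. The log2FC was 0.33 with an SE of 0.09 (1.26-fold, adjusted p = 0.042). The adjusted p was 0.102 without J3, 0.0994 without J5, 0.0757 without J6, 0.112 without J7, 0.0674 without K14J29 and 0.0741 without K14J30, with the log2FC at 0.31 to 0.38. Adamts17 (chr7:66839735-67153171), the most abundant Adamts gene per kilobase, was at 152, 158, 179.6 and 173 CPM in WT and at 183, 143, 152 and 162 CPM in mutant embryos. The groups overlapped throughout, with a log2FC of -0.05 and an SE of 0.09 (adjusted p = 0.711).

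Among the other Adamts genes, Adamts16, Adamts18 and Adamts19 had log2FC values of -0.10, -0.59 and -0.38 with adjusted p-values of 0.881, 0.362 and 0.345. In both Adamts18 and Adamts19, K14J26 was far under the other embryos, at 1.30 CPM against 5.02 to 10.3 CPM for Adamts18 and at 6.01 CPM against 12.7 to 18.1 CPM for Adamts19. Adamts7 and Adamts12, which cut cartilage oligomeric matrix protein, had log2FC values of -0.27 and 0.02 (adjusted p = 0.183 and 0.945).

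None of the 5 Adamtsl genes passed the test at an adjusted p under 0.05 in edgeR or in DESeq2, and at an unadjusted p under 0.05 there were 0 in edgeR and 1 in DESeq2. Among all genes 16.1% passed in edgeR, a share that 5 genes are too few to be read against. Adamtsl5 (chr10:80339110-80348412) was at 17.3, 21.3, 18.51 and 14.2 CPM in WT and at 28.3, 17.3, 21.8 and 24.8 CPM in mutant embryos. K14J26, K14J29 and K14J30 were above the WT range, and the log2FC was 0.37 with an SE of 0.17 (adjusted p = 0.15). Without K14J28 it was 0.48 with an adjusted p of 0.0409. Adamtsl1 (chr4:85514172-86428385) was at 13.9, 16.3, 15.2 and 16.6 CPM in WT and at 14.7, 15.1, 13.1 and 12.4 CPM in mutant embryos, which overlapped (log2FC -0.17, SE 0.10, adjusted p = 0.257). Adamtsl4 (chr3:95676201-95687917), known for the zonule fibres of the eye, was at 4.32, 5.27, 3.16 and 5.40 CPM in WT and at 6.01, 4.06, 4.50 and 3.92 CPM in mutant embryos, with a log2FC of 0.02 (SE 0.21). Adamtsl2 and Adamtsl3 had log2FC values of 0.07 and 0.28, and Adamtsl3 was at 4.32 CPM in K14J26 and at 0.727 to 1.82 CPM in the other 7 embryos.

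Timps bind the active site of the proteases they block. None of the 3 inhibitors tested had an adjusted p under 0.05 in edgeR, with 1 at an unadjusted p under 0.05. Among all genes 16.1% passed the adjusted test. A count of 0 among 3 genes is too small to be read against that share. Timp1 (chrX:20870166-20874735), a secreted inhibitor, was at 26.7, 35.4, 28.6 and 22.7 CPM in WT and at 32.3, 34.5, 47.7 and 39.3 CPM in mutant embryos. K14J29 and K14J30 were above the WT range, and J5 was above K14J26 and K14J28. The log2FC was 0.44 with an SE of 0.16 (adjusted p = 0.081), and DESeq2 gave an adjusted p of 0.0427. It was also 0.0433 in edgeR without K14J26. K14J28 and K14J29, the embryos with high Xist, were at 34.5 and 47.7 CPM for this X-linked gene. Without both of them the log2FC of Timp1 was 0.33 (adjusted p = 0.223). The part of embryo sex in its level was not tested. Timp2 (chr11:118301069-118355740), which takes part in the activation of pro-MMP2 by MMP14, was at 227, 251, 236 and 277 CPM in WT and at 233, 225, 224 and 200.5 CPM in mutant embryos. Its log2FC was -0.17 (SE 0.08, adjusted p = 0.156). K14J30 was the lowest and J7 the highest embryo, and the groups overlapped. Timp3 (chr10:86300372-86349506), which binds to the matrix and also inhibits ADAMTS proteases, was at 144, 182, 139.8 and 171 CPM in WT and at 130.4, 151, 154 and 123 CPM in mutant embryos. Both groups overlapped, with a log2FC of -0.19 and an SE of 0.11 (adjusted p = 0.236). Timp4 (chr6:115241892-115252205) had at most 8 counts, in J6 and K14J26 at 0.415 and 0.384 CPM and elsewhere at 0.0333 to 0.124 CPM. Timp1, Timp3 and Timp4 lie within Syn1, Syn3 and Syn2 on the opposite strand. The exons of Timp3 share 1733 bases with Syn3, which was at 5.28 to 9.89 CPM, far less than Timp3.

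The genes that act with these proteases were followed in 3 lists. Of 23 activators, inhibitors and receptors, 21 were tested, 3 rose and 1 fell, against 9.52% and 6.61% of all genes, with a median log2FC of -0.09. Papln, which encodes papilin, a protein related to the ADAMTS-like proteins, rose by a log2FC of 1.99 (SE 0.52, adjusted p = 0.0348), from 78.7 to 162 CPM in WT to 160.4 to 997 CPM in mutant embryos. Plaur, the receptor of the plasminogen activator urokinase, had a log2FC of 1.23 (adjusted p = 0.0476), and Pcsk7, a proprotein convertase, of 0.34 (adjusted p = 0.014). Spock2, a testican, fell with a log2FC of -0.61 (adjusted p = 0.0179). Klk4, the later enamel protease, had the largest value in this list at 3.52 with an adjusted p of 0.0533, and Furin and Reck had log2FC values of -0.20 and -0.11 (adjusted p = 0.23 and 0.443). Spock3 had the lowest value of the list at -0.65 and Pcsk6 was at -0.54, and neither passed the test.

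Of 18 other matrix metalloproteases and procollagen processing genes, 15 were tested and 4 rose, against 9.52% of all genes, while none fell (6.61% of all genes) in edgeR at an adjusted p under 0.05, with 1 lower gene at an unadjusted p under 0.05 and 1 called by DESeq2. The median log2FC was 0.15. Phex, an endopeptidase of odontoblasts and osteoblasts, rose the most (1.40, SE 0.31, adjusted p = 0.022), and Mme, the neutral endopeptidase, had a log2FC of 0.71 (adjusted p = 0.0203). Adam8 and Pcolce2, an enhancer of procollagen C-proteinase, had log2FC values of 0.68 and 0.56 (adjusted p = 0.0194 and 0.0382). Adam33, Adam9 and Adam12 had the lowest values at -0.97, -0.33 and -0.16, none past the test. Bmp1, the procollagen C-proteinase itself, was at 162 to 167 CPM in WT and 166 to 198 CPM in mutant embryos (log2FC 0.13, adjusted p = 0.184).

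Of 22 substrates, 21 were tested, 7 rose and 3 fell, against 9.52% and 6.61% of all genes. The median was -0.19, so that the median and the larger count of calls differed in sign. Those that rose were the enamel matrix genes Enam (5.61), Ambn (5.32) and Amelx (4.17), the proteoglycan gene Bcan (1.56), Col1a1 and Col1a2, and Tnc (0.42), which encodes tenascin C. The enamel genes are also ameloblast markers and were known to rise in these samples, so their count is not independent evidence. Those that fell were Vcan, the microfibril gene Fbn2 (-0.81, adjusted p = 0.0174) and Col4a1 (-0.29, adjusted p = 0.0397). Among the others, the lowest value was that of Comp at -1.27 (adjusted p = 0.173), which was under 0.5 CPM in all embryos.

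The 8 genes past the test kept their direction in all 20 alternative fits. Adjusted p-values were under 0.05 in 18 of the 20 for Mmp11, 16 for Adamts20, 12 for Mmp20, Adamts14 and Mmp15, 11 for Adamts6, 10 for Adamts10 and 9 for Adamts3. When that enamel score was a covariate none of the 8 passed, and the calls among all genes dropped from 1631 higher and 1133 lower to 326 and 194. In that fit the log2FC was 0.47 for Adamts6, 0.43 for Mmp20, 0.18 for Adamts14, 0.10 for Adamts10, -0.04 for Adamts3, -0.31 for Mmp11, -0.41 for Mmp15 and -0.65 for Adamts20.

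**Figure D5:**
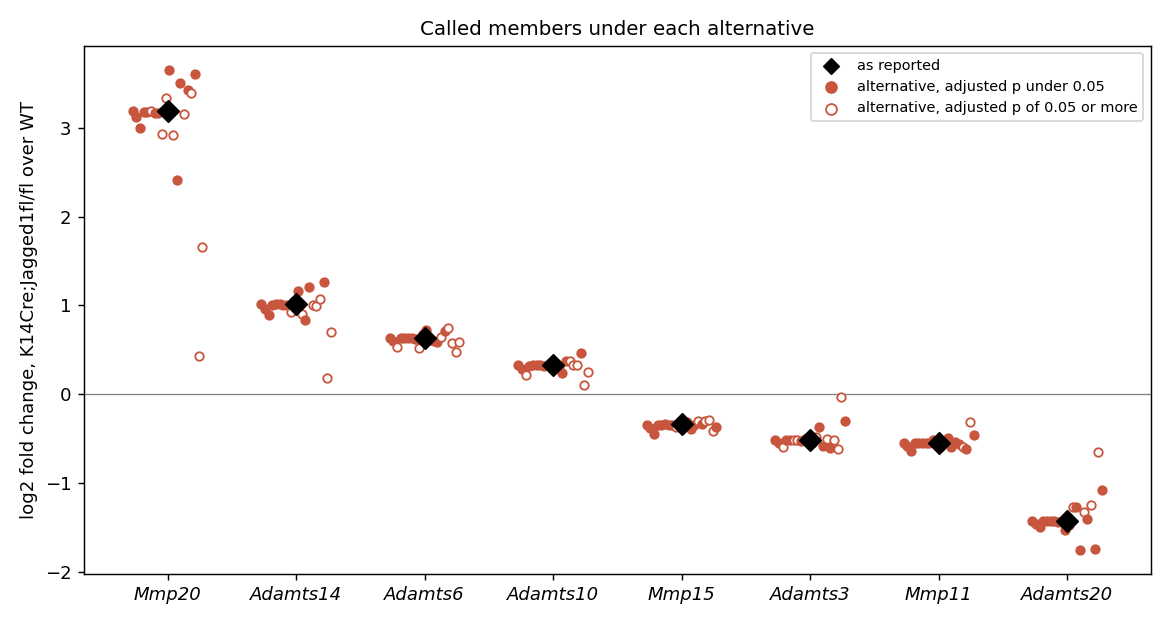
Log2FC, mutant over WT, of the 8 genes with an adjusted p under 0.05 as reported (diamonds) and in 20 alternative fits (circles, filled where the adjusted p is under 0.05). No circle crosses 0, and the nearest, for Adamts3 at -0.04, comes from the fit that includes the enamel gene score.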

How the data were processed

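The deposited files hold counts per gene and embryo, 1 file per embryo; the authors trimmed single-end reads with Trimmomatic (5 bases at the 3′ end), aligned them to GRCm38 with STAR 2.5.1 and counted reads per gene. The study's methods name GenomicRanges and the submitters' processing notes name featureCounts for the counting, and the treatment of strand and of reads with several matches is not given in the sources used here. Genes that reached 10 counts in 2 or more embryos of a group, as in the study, were tested with edgeR 4.0.16 (R 4.3.3; TMM, glmQLFit, glmQLFTest) over 17129 genes, without covariates, with Benjamini-Hochberg adjustment over all of them. CPM are counts scaled to the TMM-adjusted library total; gene coordinates, exon lengths and coding sequences are from GENCODE M21 (GRCm38), in which 42548 of the 43629 identifiers were found, using the transcript with the longest coding sequence. Standard errors were derived from the F statistic, as the size of the log2FC over its square root. A gene was named with its values if its adjusted p was under 0.05, if it was Mmp2, Mmp9, Mmp13, Mmp14, Mmp16, Mmp20 or a Timp, or if it was among the 3 highest per kilobase of the Mmp, Adamts or Adamtsl genes; genes past the study's criteria were given with their fold change, and the rest by range. In the lists of partner genes, those past the test and the 3 largest changes each way were named, and Furin, Reck and Bmp1 were added for their roles. Mmp23, Adamts18, Adamts19 and Adamtsl3 were singled out from their values. The members, gene lists and tests were chosen with earlier results of these data known. Each embryo is a separate animal, and the p-values weigh the difference between the groups against the spread between embryos. No 2 embryos of a group agreed within sampling noise (chi-square per degree of freedom 6.88 to 289), so none was merged. The precision rests on 4 embryos a group; intervals from counts cover counting error only. Alternatives were RLE, upper-quartile and total scaling, TMM without the 20 most abundant genes, DESeq2 1.42.0, robust quasi-likelihood, other filters (none, or at least 1 CPM in all 4 embryos of a group), each embryo left out, both J6 and J7 or both K14J28 and K14J29 left out, and an enamel gene score (mean log2 CPM of Amelx, Ambn, Enam and Klk4) as a covariate. The fit was tested on simulated data.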

Additional observations from a re-analysis of the deposited data

Results flagged for a closer look

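Mmp8 in K14J26 stood apart from the other mutant embryos: it was at 3.56 CPM there, and the gap to the next embryo was 0.86 of the range of the group, above Dixon's limit for 4 samples. This check was run on 24 genes in both groups, 48 groups in all, of which 1 was flagged. Chance flags about 1 in 20 groups.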

How the results depend on the processing

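As reported, 4 members were higher and 4 lower at an adjusted p under 0.05, and 4 and 5 by the looser rule. Leaving out 1 embryo at a time gave 0 to 6 higher and 1 to 5 lower at an adjusted p under 0.05, and 3 to 5 and 3 to 6 by the looser rule. Among all genes these fits called 250 to 2479 higher and 170 to 1845 lower at an adjusted p under 0.05. The most were called without K14J28, the fit that also gave the 6 and 5 members. No member was higher at an adjusted p under 0.05 in edgeR without J3, J5, J7 or K14J29 (5, 7, 6 and 5 were at an unadjusted p under 0.05); among all genes the calls higher fell there from 1631 to 373, 451, 300 and 250, and the cause was not tested. Without J6 and J7 the counts were 0 higher and 0 lower (5 and 6 at an unadjusted p under 0.05), where 3 higher and 4 lower of all genes passed, and with the enamel score as a covariate, 0 and 0 (3 and 5 at an unadjusted p under 0.05), with 2 and 2 by the looser rule and 326 higher and 194 lower of all genes. Without K14J26 and K14J29, an alternative chosen after seeing the data, 0 were higher (6 at an unadjusted p under 0.05) and 5 lower (747 and 570 of all 16795 genes), with 2 lower by the looser rule. Total scaling gave 2 higher and 3 lower (864 and 1065 of all genes). It lost Adamts10 (log2FC 0.22, adjusted p = 0.0716), Adamts6 (0.54, 0.0749) and Adamts3 (-0.59, 0.0764). Robust quasi-likelihood gave 3 higher and 3 lower (1564 and 1126 of all genes), without Mmp20 and Adamts3 (adjusted p = 0.0509 and 0.0512). The filter of at least 1 CPM gave 4 higher and 5 lower (1640 and 1256 of all 14356 genes) and added Mmp24. DESeq2, which added Timp1 and Adamts8, gave 5 higher and 5 lower (2244 and 1718 of all genes, against 1631 and 1133 as reported). Total scaling moved the median of all genes to -0.09.

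Of the alternatives for the named genes, 389 values kept their direction and side of the threshold, 60 lost and 10 gained an adjusted p under 0.05, and 20 changed sign, none of them among the 8 genes past the test. Adamtsl4 changed sign to -0.031 with upper-quartile scaling, -0.10 with total scaling, -0.065 without J6 and J7, -0.24 with the enamel score and -0.20 without K14J26 and K14J29, and leaving out 1 embryo gave -0.13 to 0.11, with -0.01 without J3, -0.12 without J6 and -0.13 without K14J26. Mmp14 changed to -0.012 with total scaling, -0.13 with the enamel score and -0.052 without K14J26 and K14J29. Adamts17 changed to 0.038 without J6 and J7 and 0.048 without K14J28 and K14J29. Mmp16 changed to 0.017 without J6 and J7, 0.14 with the enamel score and 0.0071 without K14J26 and K14J29. Mmp13 ranged from -0.74 to 0.0096 with 1 embryo left out, the latter without J5. With the enamel score Adamts2, Adamtsl5 and Mmp8 changed to -0.045, -0.065 and -0.041. The cause was not tested for any of these. No paired analysis was possible because the embryos of the 2 groups share no numbers. Mmp8 has no value with the filter of at least 1 CPM. The 9 untested genes had at most 9 counts in any embryo, and whether more depth would bring them past the filter was not tested. In these libraries 3 counts are 0.0998 to 0.166 CPM.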
